A study of Rattus norvegicus with 12 samples.

Results

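The response to a cytokine challenge was measured inside the preconditioned arm of the experiment, as 3 libraries of IL-1βlow + CYT cells against 3 libraries of IL-1βlow cells. These are 6 of the 12 libraries of the series, chosen by their labels alone. The cells were wild-type INS-1E, a line grown from a rat insulinoma, which makes and secretes insulin. It stands in for the pancreatic β cell. IL-1βlow cells received IL-1β at 10 pg/ml for 72 h, dosed again every 24 h in the same medium. IL-1βlow + CYT cells had the same preconditioning and then, in new medium, IL-1β at 100 pg/ml plus IFN-γ at 5 ng/ml (CYT) for 16 h. Both groups therefore carry the low dose of IL-1β, and a gene that the low dose had already raised starts from that level. The remaining 6 libraries, 3 untreated and 3 given CYT for 16 h with no preconditioning, served as the reference for the size of the response. The question was which part of the cytokine programme a preconditioned cell still runs when it is challenged.

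IFN-γ binds its receptor, activates JAK1 and JAK2 and sends STAT factors to GAS elements, and these factors and IRF1 then drive antigen presentation genes, guanylate-binding proteins and antiviral effectors. IL-1β acts through MyD88 and IRAK kinases on NF-κB, which switches on chemokines, its own inhibitors and, together with IFN-γ signals, inducible nitric oxide synthase. In β cells the combination is known to cause nitric oxide production, endoplasmic reticulum (ER) stress, the integrated stress response through ATF4 and CHOP, and loss of insulin and of the transcription factors that define the cell.

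The 6 libraries held between 15868003 and 20246806 counts, and 14324 of 34034 genes passed the filter of a CPM (counts scaled to a common library size) above 1 in at least 2 of the 12 libraries. Levels below are CPM scaled with TMM factors, and errors on levels are SD over n = 3. They are not corrected for gene length, so they compare a gene between samples and not genes with each other. The first principal component of the 6 libraries, with 62.8% of the variance, separated the groups. The second, with 19.6%, set replicate 3 of both groups apart from the others. Distances were 42.3 to 61.8 log2 units within groups and 82.8 to 96.9 between them. The β-cell markers Ins1, Ins2, Iapp, Pdx1, Nkx6-1, Mafa and Slc30a8 were all present and summed to 29200 to 34170 CPM in IL-1βlow cells and 16000 to 20340 CPM after CYT. Of 10 macrophage and leukocyte markers, 6, among them Ptprc, Cd14, Itgam and Lyz2, had at most 3 counts in every library. The summed level of the 10 went from 1.03 to 1.30 CPM without CYT to 4.50 to 5.77 CPM with it. Among them Adgre1 went from 0 to 2.79 ± 0.606 CPM and Csf1r from 0.307 ± 0.245 to 1.43 ± 0.173 CPM, and the part of such cells in the results was not tested. The summed levels without and with CYT were 171 to 274 and 84.7 to 163 CPM for 8 markers of other islet hormone cells, 13.7 to 16.5 and 10.1 to 12.2 CPM for 8 fibroblast markers, 10.7 to 17.2 and 7.30 to 9.60 CPM for 6 endothelial markers, and 1.96 to 2.53 and 0.669 to 1.07 CPM for 7 acinar and ductal markers. In bulk RNA, fewer cells of a kind and less RNA per cell cannot be told apart.

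**Figure D1:**
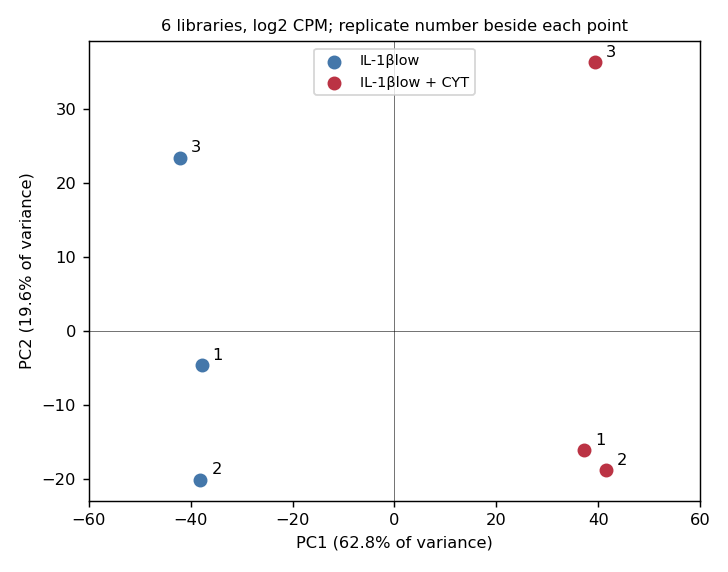
Principal components of the 6 libraries on log2 CPM, with PC1 on the x axis and PC2 on the y axis. Each point is 1 library, coloured by group and marked with its replicate number. PC1 (62.8%) separates IL-1βlow from IL-1βlow + CYT, and PC2 (19.6%) places replicate 3 of both groups above the other libraries.

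CYT changed 556 genes in preconditioned cells, 3.88% of those tested, and the change was mainly upward. A gene was called when its Benjamini-Hochberg adjusted p was under 0.01 and its log2 fold change beyond 1 in either direction. There were 418 genes higher (2.92%) and 138 lower (0.963%), and for each of them the 3 challenged libraries lay entirely on one side of the 3 unchallenged ones. Over all tested genes 27.1% had such non-overlapping groups, 23.6% had an unadjusted p under 0.05 and 51.3% had a negative log2 fold change. The median log2 fold change was 1.86 over the called higher genes, or 1.83 with the 45 genes at or under 3 counts in every IL-1βlow library set to their lower bound, and -1.35 over the called lower genes. Without preconditioning, CYT raised 1439 genes (10.0%) and lowered 1657 (11.6%) under the same thresholds. Those 6 libraries are separate from the 6 compared here. Of the 418 genes higher in preconditioned cells, 374 (89.5%) were also higher in that comparison, and of the 138 lower genes 122 (88.4%) were also lower. In the other direction, the 374 made up 26.0% of the genes that CYT raised without preconditioning, and the 122 made up 7.36% of those it lowered. A gene not called could still move the same way. Of the 1439 raised genes 1292 had a positive log2 fold change in preconditioned cells, with a median of 0.54. Of the 1657 lowered genes 1404 had a negative one, with a median of -0.33. Over all 14324 tested genes 6982 were positive and 7342 negative. A test of the difference between both responses, the interaction, called 1530 genes, with a more negative response after preconditioning for 745 (5.20%) and a more positive one for 785 (5.48%).

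**Figure D2:**
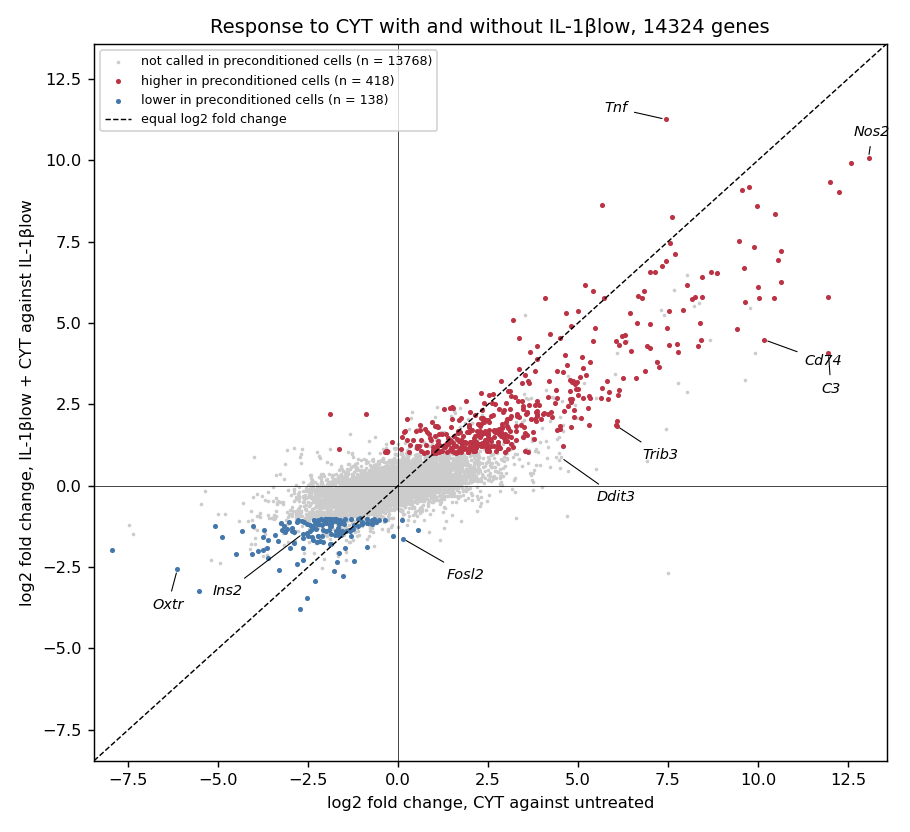
Log2 fold change of each of the 14324 tested genes with CYT in cells without preconditioning (x axis) and in preconditioned cells (y axis). Red points are the 418 genes called higher and blue points the 138 called lower in preconditioned cells, grey points were not called, and the dashed line marks equal change. Genes whose reference libraries hold almost no counts have fitted values that depend on the fit, among them Nos2, Tnf and C3.

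The largest called rises among genes with a mean log2 CPM above 2 were in Nos2, Ltb, Majin, RT1-Ba, Lrp4 and LOC120096227. Nos2, the inducible nitric oxide synthase, was at 0.0513, 0.0613 and 0 CPM in the IL-1βlow libraries and at 33.0, 55.7 and 57.8 CPM with CYT. This is a rise of at least 280-fold against a floor of 3 counts per library (adjusted p = 3.09e-09). All 3 challenged libraries were far above the others, and their mean of 48.8 ± 13.7 CPM stood beside 569 ± 142 CPM in CYT cells without preconditioning. Ltb, which encodes lymphotoxin β, went from 1.33, 0.859 and 0.802 CPM to 112, 84.2 and 97.8 CPM, a log2 fold change of 6.58 ± 0.25 (SE, adjusted p = 3.03e-10). Majin, a meiotic telomere attachment gene, went from 0.526 ± 0.296 to 51.1 ± 0.893 CPM, above its 31.4 ± 5.43 CPM in CYT cells, although its interaction missed the threshold (log2 -0.58 ± 0.51, adjusted p = 0.397). Lrp4, a membrane receptor of the LDL receptor family, reached 79.5 ± 23.9 CPM from 1.40 ± 0.345, and the uncharacterised LOC120096227 reached 83.3 ± 5.71 from 1.51 ± 0.192.

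The largest falls by the same rule were in Car8, Oxtr, Cdh23, Iqgap2, Fgl2 and Gsdma. Car8, a carbonic anhydrase-related protein without enzyme activity, was at 118, 131 and 175 CPM in IL-1βlow cells and at 21.5, 24.8 and 23.8 CPM after CYT (log2 fold change -2.60 ± 0.18, adjusted p = 1.05e-07). Oxtr, the oxytocin receptor, went from 21.2, 23.9 and 29.7 CPM to 5.17, 3.83 and 3.57 CPM (-2.57 ± 0.18, adjusted p = 9.81e-08). The groups did not overlap for either gene. Oxtr was at 52.9 ± 7.55 CPM in untreated and 0.749 ± 0.131 CPM in CYT cells, so its fall in preconditioned cells was the smaller one (interaction log2 3.56 ± 0.29, adjusted p = 1.83e-06). Cdh23, a cadherin, fell by 2.33 on the log2 scale, Iqgap2, a scaffold protein, by 2.23, and the secreted fibrinogen-like Fgl2 and the gasdermin Gsdma by 1.91 each.

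The promoters of some members that moved together are shown because they carry the letters that the IFN-γ and IL-1β pathways are known to use. The sequences are RefSeq's, 250 bases before the annotated start on the build GRCr8, written 5′ to 3′ on the gene's strand. Capitals mark matches on either strand to the GAS element TTCNNNGAA, the interferon-stimulated response element (ISRE) core GAAANNGAA, the κB site GGANTTTCC and the ATF4-CHOP element TGATGNAA. These letters are in 7.52%, 7.99%, 1.06% and 3.27% of the 27457 promoters of the table, and a match is a description of the sequence and not a measured site. A GAS and an ISRE core match can share bases. Only these letters were searched, and a window without them can hold another form of a site. The windows are chr10:38417685-38417934 (plus strand) for Irf1, chr2:233910749-233910998 (plus) for Gbp5, chr3:129549080-129549329 (plus) for B2m, chr8:27829595-27829844 (plus) for Icam1, chr6:78597073-78597322 (minus) for Nfkbia, chr20:3634055-3634304 (minus) for Ltb, chr14:17479322-17479571 (minus) for Cxcl1 and chr3:161275534-161275783 (minus) for Trib3.
Irf1: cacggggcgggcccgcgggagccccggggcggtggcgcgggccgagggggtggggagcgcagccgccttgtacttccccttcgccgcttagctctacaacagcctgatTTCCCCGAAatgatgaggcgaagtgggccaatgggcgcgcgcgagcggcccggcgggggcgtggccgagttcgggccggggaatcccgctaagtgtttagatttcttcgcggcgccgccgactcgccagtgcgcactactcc
Gbp5: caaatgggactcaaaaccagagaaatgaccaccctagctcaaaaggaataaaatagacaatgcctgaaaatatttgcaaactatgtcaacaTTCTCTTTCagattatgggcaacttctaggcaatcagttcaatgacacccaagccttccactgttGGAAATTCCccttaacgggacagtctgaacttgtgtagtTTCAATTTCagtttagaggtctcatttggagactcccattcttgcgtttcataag
B2m: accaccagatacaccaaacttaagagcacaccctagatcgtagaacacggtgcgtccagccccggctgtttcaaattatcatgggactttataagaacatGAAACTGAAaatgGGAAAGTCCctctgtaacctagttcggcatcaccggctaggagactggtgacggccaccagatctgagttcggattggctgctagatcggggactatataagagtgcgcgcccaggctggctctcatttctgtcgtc
Icam1: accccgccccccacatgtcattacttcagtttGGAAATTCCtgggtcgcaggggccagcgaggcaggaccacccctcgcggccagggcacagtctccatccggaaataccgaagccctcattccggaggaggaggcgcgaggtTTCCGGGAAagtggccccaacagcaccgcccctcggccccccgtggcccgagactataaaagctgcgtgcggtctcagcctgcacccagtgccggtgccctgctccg
Nfkbia: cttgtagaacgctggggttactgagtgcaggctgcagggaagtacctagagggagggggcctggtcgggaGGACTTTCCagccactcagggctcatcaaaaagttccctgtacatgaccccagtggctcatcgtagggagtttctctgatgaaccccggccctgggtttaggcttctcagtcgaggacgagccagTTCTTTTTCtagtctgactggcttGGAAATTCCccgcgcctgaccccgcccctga
Ltb: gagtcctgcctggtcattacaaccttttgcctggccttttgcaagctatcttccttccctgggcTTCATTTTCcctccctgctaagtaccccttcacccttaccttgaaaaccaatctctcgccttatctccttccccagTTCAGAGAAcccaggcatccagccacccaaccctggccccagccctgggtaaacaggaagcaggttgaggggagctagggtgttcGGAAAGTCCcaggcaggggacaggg
Cxcl1: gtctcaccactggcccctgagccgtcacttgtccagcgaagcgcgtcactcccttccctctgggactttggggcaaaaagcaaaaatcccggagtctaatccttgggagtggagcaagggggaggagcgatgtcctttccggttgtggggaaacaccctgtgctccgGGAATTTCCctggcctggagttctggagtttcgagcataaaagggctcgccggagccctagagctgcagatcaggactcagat
Trib3: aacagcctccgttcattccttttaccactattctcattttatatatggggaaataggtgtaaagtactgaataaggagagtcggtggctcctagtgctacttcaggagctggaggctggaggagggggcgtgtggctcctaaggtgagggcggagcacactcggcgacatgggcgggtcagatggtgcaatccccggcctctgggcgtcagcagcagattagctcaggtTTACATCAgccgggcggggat

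The Irf1 window holds a GAS match, Gbp5 a pair of ISRE cores and a κB match, and B2m an ISRE core beside a κB match. Icam1 holds a GAS and a κB match, Nfkbia an ISRE core and 2 κB matches, Ltb 1 match of each of these 3 kinds, and Cxcl1 a κB match. Trib3 is the example of the stress response described below and holds the ATF4-CHOP letters. These windows were picked for their matches. Those of other called higher genes, among them Tnf, Cxcl2, Mx1, Psmb9, Cd74, Lcn2, C3 and Sod2, hold none of the letters. Genes not called higher can hold them too, among them Srxn1, P4hb, Cyp4a8 and Bcl2. Of the 418 called higher genes only 311 (74.4%) had a promoter in the table, so the shares over the called genes are void and are not given. Where over 80% of a list had one, the ISRE core was in 9 of 10 interferon-inducible GTPases and in 10 of 31 MHC class I genes, in 1 of 12 genes of IL-1 receptor signalling, in 2 of 19 antioxidant genes and in 1 of 30 G2/M genes. It was in 0 of 11 MHC class II, 0 of 32 integrated stress response and 0 of 10 ER calcium genes. GAS letters were in 5 of the 10 GTPases and 0 of the 11 class II genes, and the ATF4-CHOP letters in 6 of 32 genes of the integrated stress response, 1 of the 10 GTPases, 1 of the 31 class I genes and 0 of the genes of the other 5 lists.

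Few IFN-γ receptor and JAK-STAT genes passed the thresholds, while more of their targets did. The shares over all tested genes, 2.92% higher and 0.963% lower, are the reference for this and each later list. Of 22 tested members of the pathway 2 were higher (9.09%) and 0 lower. The median log2 fold change was 0.18 beside -0.007 over all genes. An unadjusted p under 0.05 was found for 10 (23.6% over all genes). At an adjusted p under 0.05 with no fold minimum 7 were higher (7.96% over all genes) and 1 lower. Jak3, a kinase of cytokine receptors with the common γ chain, rose from 11.0 ± 0.738 to 25.8 ± 2.23 CPM (log2 fold change 1.23 ± 0.14, adjusted p = 1.35e-05). Usp18, which removes ISG15 and restrains interferon signalling, passed narrowly at 1.02 ± 0.24 (adjusted p = 0.00939). Its call was lost when any of the 6 libraries was left out (0.91 to 1.20, adjusted p 0.0128 to 0.0530) and with the replicate number as a block (1.00, adjusted p = 0.00443). The receptor subunit Ifngr2 was at 41.5, 44.5 and 40.2 CPM without and 83.1, 83.8 and 68.5 CPM with CYT, without overlap but short of the fold threshold (0.90 ± 0.09).

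Among the interferon regulatory factors 3 of 8 were higher, and each of the 3 responded less than in cells without preconditioning. Irf1, a direct target of IFN-γ signalling whose promoter is shown above, was at 44.5, 44.6 and 39.3 CPM in IL-1βlow cells and at 132, 129 and 121 CPM after CYT (log2 fold change 1.58 ± 0.15, adjusted p = 3.55e-06). In CYT cells it averaged 273 ± 73.8 CPM from 35.1 ± 1.14, and the interaction was -1.38 ± 0.21 (adjusted p = 0.000223). Irf5 rose by 1.76 ± 0.19 and its interaction was -1.30 ± 0.27. Irf7, the factor that amplifies type I interferon, reached 13.1 ± 1.44 CPM from 6.37 ± 0.174, against 105 ± 32.5 CPM in CYT cells. Its rise of 1.05 ± 0.21 lost its call without replicate 1, 2 or 3 of IL-1βlow or replicate 2 of IL-1βlow + CYT (0.96 to 1.06, adjusted p 0.0121 to 0.0174), while its interaction was -2.57 ± 0.28 (adjusted p = 1.78e-05).

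Of the interferon-inducible GTPases, which coat and break open the vacuoles of intracellular microbes, 7 of 10 were higher and 0 lower, with no overlap between groups for any of the 10 (27.1% of all genes had none). Gbp5 was at 0.205, 0.245 and 0.247 CPM without CYT and at 4.56, 4.43 and 5.23 CPM with it (log2 fold change 4.32 ± 0.45, adjusted p = 8.53e-06). Gbp6 rose by 3.66 ± 0.40 and Gbp2 by 2.99 ± 0.42, to 4.43 ± 1.32 and 4.30 ± 0.439 CPM, and both were near 30 CPM in CYT cells (30.8 ± 8.95 and 29.2 ± 12.2). The interaction was -3.59 ± 0.75 for Gbp6 and -2.68 ± 0.66 for Gbp2, and for Gbp5 it was -1.82 ± 0.80 and not called. The interaction call of Gbp2 was lost in 6 of the 12 fits that leave out 1 library (-2.19 to -2.72, adjusted p 0.0104 to 0.058), and that of Gbp6 without replicate 3 of IL-1βlow (-3.28, adjusted p = 0.0129). Members of this family are alike in sequence, and the counting could split their reads.

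Of 33 antiviral effectors 12 were higher and 0 lower, compared with 23 higher in the CYT cells. The median log2 fold change was 0.97 in preconditioned cells and 2.23 without preconditioning. Mx1, a GTPase that blocks viral ribonucleoproteins, was at 0.103, 0.429 and 0.494 CPM in IL-1βlow cells and at 6.57, 10.9 and 14.9 CPM after CYT (5.01 ± 0.58, adjusted p = 2.36e-05), against 100 ± 48.3 CPM in CYT cells. Mx2 reached 21.4 ± 7.66 CPM from 1.10 ± 0.267, against 281 ± 144 CPM, and its interaction was called (-4.06 ± 0.84, adjusted p = 0.00196) but not without replicate 2 of IL-1βlow (-3.88, adjusted p = 0.013). For Mx1 the interaction of -3.36 ± 1.21 was not called (adjusted p = 0.0418) but was with the replicate block (-3.34, adjusted p = 0.000976). Oas2, an oligoadenylate synthetase that activates RNase L, had no more than 2 counts in any IL-1βlow library and 1.83 ± 1.04 CPM with CYT, at least 10.5-fold higher.

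MHC class I presentation was the list with the most called genes by number. By share its 61.8% higher stood below the interferon-inducible GTPases (70%) and the adhesion and checkpoint genes (62.5%). These shares are of tested members and depend on the filter. Gbp5, for example, was under 1 CPM in every library without CYT and passed the filter through libraries with it. With at least 10 counts required in every library 4 GTPases and 3 adhesion and checkpoint genes were higher. Of 34 tested class I members 21 were higher and 0 lower, the called ones by 1.07 to 2.23 on the log2 scale, and 26 were higher in CYT cells. The immunoproteasome subunit Psmb8 was at 25.0, 21.9 and 18.1 CPM in IL-1βlow cells and at 104, 103 and 99.1 CPM with CYT (2.23 ± 0.11, adjusted p = 4.11e-09). Psmb9, another immunoproteasome subunit, rose by 2.20 ± 0.13 to 81.3 ± 5.95 CPM. B2m, the invariant light chain, was at 219, 250 and 219 CPM and rose to 702, 757 and 823 CPM (1.73 ± 0.10, adjusted p = 1.07e-08). The challenged libraries of all 3 genes were tightly grouped and well above the others. The interaction was -1.35 ± 0.16 for Psmb8, -1.10 ± 0.18 for Psmb9 (-0.94 and not called without replicate 1 of IL-1βlow) and -1.08 ± 0.13 for B2m. B2m was at 152 ± 13.8 CPM in untreated cells, so that it started higher after preconditioning and ended at 761 ± 61.0 CPM against 1065 ± 60 in CYT cells. The 13 called heavy or light chain genes of the 19 tested include rat RT1 genes that are near copies of each other, and their single values are uncertain.

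Several MHC class II genes rose from at most a few counts. Of 13 tested members 7 were higher (53.8%, beside 2.92% of all genes) and 0 lower. At most 3 counts in every IL-1βlow library were found for 4 of the 13, which had next to no room for a fall. With at least 10 counts required in every library 0 were higher. RT1-DMb, a chain of the DM peptide exchanger, had 0 counts in the 3 IL-1βlow libraries and 5.05, 8.75 and 6.60 CPM after CYT, at least 39.0-fold higher (adjusted p = 9.14e-07). RT1-Db1 and RT1-Bb, β chains of class II molecules, rose at least 57.8-fold and 54.6-fold. RT1-Ba, an α chain, went from 1.23, 0.368 and 0.247 CPM to 38.7, 57.7 and 54.1 CPM (6.26 ± 0.30, adjusted p = 2.26e-09), with 168 ± 17.7 CPM in CYT cells. Cd74, the invariant chain that guards the peptide groove, was at 12.4, 10.7 and 10.4 CPM already with preconditioning alone, against 0.332 ± 0.229 CPM in untreated cells, and rose to 246, 258 and 244 CPM (4.48 ± 0.13, adjusted p = 1.76e-11). In CYT cells it averaged 395 ± 31.1 CPM. The leukocyte markers were mixed. Ptprc had at most 3 counts in every library, while Adgre1 and Csf1r rose as given above. The 10 markers together went from 1.03 to 1.30 CPM without CYT to 4.50 to 5.77 CPM with it. Whether such cells contributed class II RNA was not tested.

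Of 30 NF-κB genes 13 were higher and 0 lower, and the median log2 fold change of 0.87 compared with 1.57 without preconditioning. The called genes were 3 of 5 subunits, 4 of 7 inhibitors, 2 of 6 genes of the kinase complex and 4 of 12 tested feedback regulators. Ikbke, an IKK-related kinase, was at 0.205, 0 and 0.123 CPM in IL-1βlow cells and at 10.2, 11.8 and 13 CPM with CYT (6.58 ± 0.42, adjusted p = 4.98e-08). Zc3h12a, an RNase that degrades inflammatory transcripts, went from 6.97, 7.48 and 5.43 CPM to 86.5, 86.7 and 86.3 CPM (3.70 ± 0.11, adjusted p = 2.92e-11). Map3k8, the kinase that links NF-κB to ERK, rose by 3.22 ± 0.27. Ikbke ended near its level in CYT cells (11.7 ± 1.40 against 13.4 ± 1.98 CPM), and its interaction of -0.41 ± 0.98 was not called and is too imprecise to show that the responses were alike. Nfkbia, which encodes IκBα and whose promoter is shown above, was at 21.5, 19.4 and 18.1 CPM without and 116, 120 and 106 CPM with CYT (2.53 ± 0.11). It was singled out for its promoter after its values were seen.

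None of the 14 tested genes of IL-1 receptor signalling was called by edgeR's quasi-likelihood test, with or without the replicate block, by edgeR's exact test or by DESeq2, and 3 had an unadjusted p under 0.05, a share near the 23.6% of all genes. The signalling receptor Il1r1 was at 346, 308 and 432 CPM without and 254, 211 and 321 CPM with CYT, with overlap (-0.47 ± 0.17, adjusted p = 0.0997). In CYT cells it was at 142 ± 33.8 CPM against 404 ± 19.4 in untreated cells, and the interaction of 1.03 ± 0.24 was called (adjusted p = 0.00469). That call was lost in 9 of the 12 fits that leave out 1 library (0.86 to 1.03, adjusted p 0.00764 to 0.0188). The decoy receptor Il1r2 was at 4.68 ± 1.16 and 4.33 ± 0.861 CPM (-0.11 ± 0.23). The kinases Irak2 (0.66 ± 0.19, adjusted p = 0.0305) and Irak4 (0.44 ± 0.19) were not called, and Irak2 had a called interaction of -1.57 ± 0.26. The ligand Il1b and the receptor antagonist Il1rn lay below the filter: Il1b had 0 counts in each IL-1βlow library and 2, 3 and 3 counts with CYT, and Il1rn had a single count over the 6 libraries, in a challenged one.

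**Figure D3:**
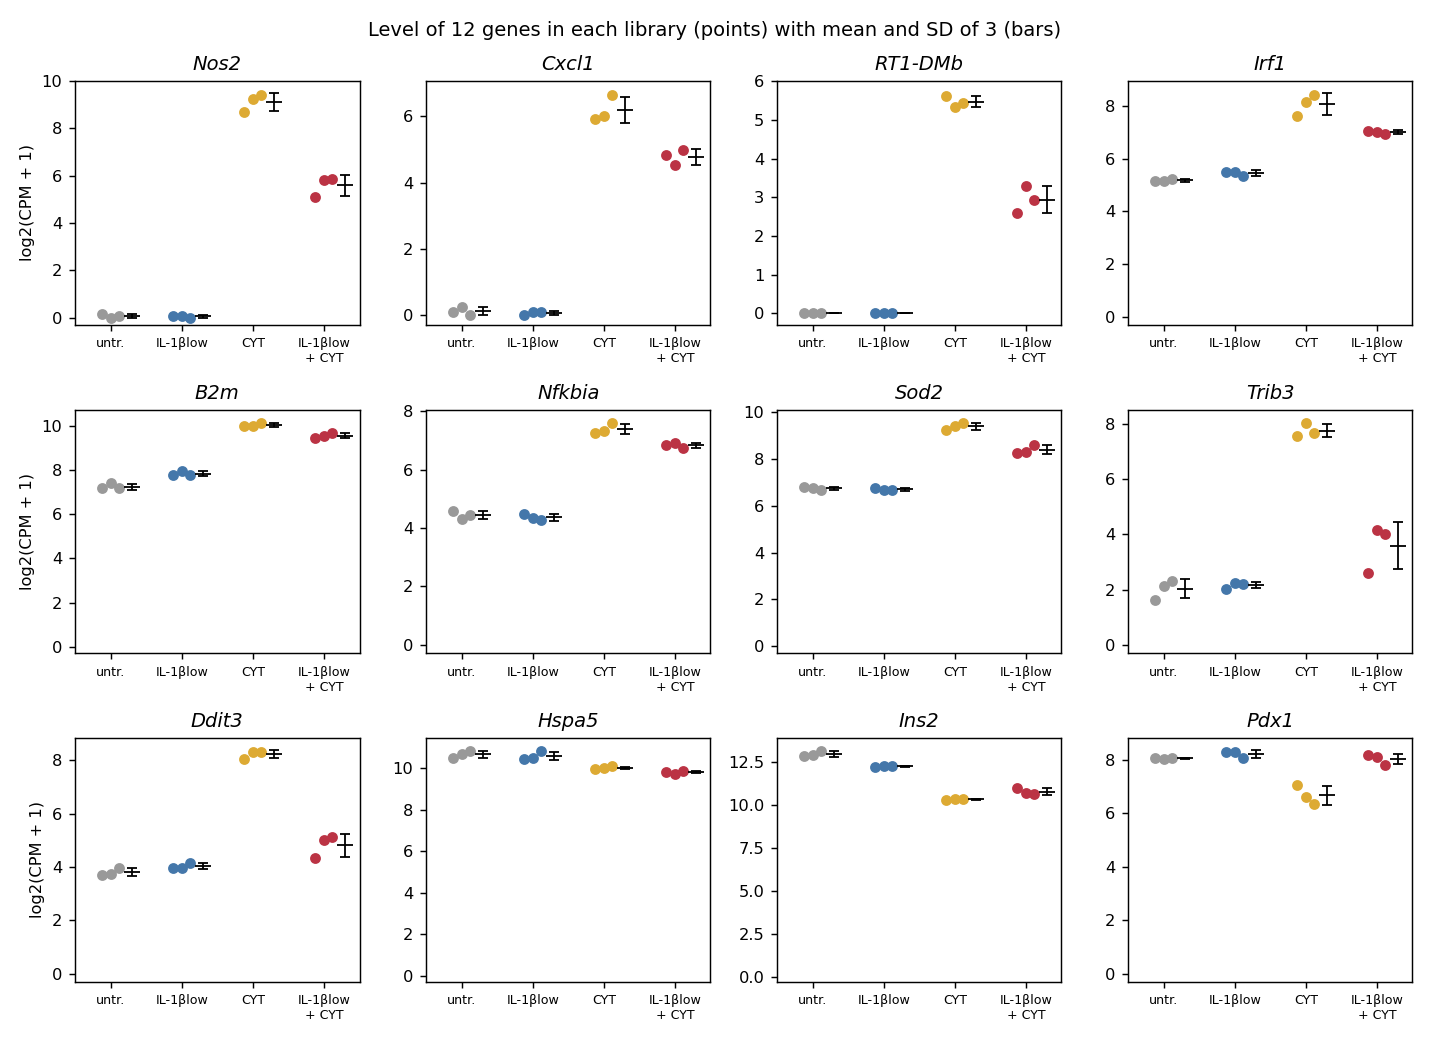
Level of 12 genes on the log2(CPM + 1) scale (y axis, different range for each gene) in the 4 groups (x axis). Points are the 3 libraries of a group and bars the mean and SD of those log2 values. Nos2, Cxcl1, RT1-DMb, Irf1, B2m, Nfkbia and Sod2 are higher in every IL-1βlow + CYT library than in every IL-1βlow library, while Pdx1 overlaps.

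Chemokines and cytokines rose in the challenged cells: 13 of 22 tested genes (59.1%, beside 2.92% of all genes) were higher and 0 lower. In CYT cells 20 were higher. The list has 41 members, and those not tested lay below the filter. With at least 10 counts required in every library 7 were higher. The median log2 fold change was 3.71, or 2.14 with the 10 genes at or under 3 counts in every IL-1βlow library set to their lower bound. Those 10 genes had next to no room for a fall, so the 0 lower says nothing about them. Tnf had 0 counts in the 3 IL-1βlow libraries and was at 20.9, 14.3 and 17.0 CPM with CYT, at least 99.7-fold higher (adjusted p = 6.49e-09). Its mean of 17.4 ± 3.31 CPM was above the 8.0 ± 0.930 CPM of CYT cells, and its interaction was not called (adjusted p = 0.0752). Cxcl1, a neutrophil chemokine, rose at least 152-fold, from at most 1 count per library to 27.2, 21.9 and 30.5 CPM, against 74.1 ± 21.2 CPM in CYT cells. Cxcl2, which acts on the same receptor, rose at least 49.0-fold to 8.54 ± 1.21 CPM.

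Of 18 adhesion and checkpoint genes 8 were tested, and of these 5 were higher and 0 lower. Cd40, a costimulatory receptor, was at 0.308, 0.0613 and 0.494 CPM in IL-1βlow cells and at 18.6, 21.6 and 21.2 CPM with CYT (6.11 ± 0.29, adjusted p = 2.39e-09). Madcam1, an adhesion molecule of mucosal vessels, rose by 4.0 ± 0.18 to 56.1 ± 9.07 CPM, and was at 34.3 ± 4.01 CPM in CYT cells. Icam1, the ligand of leukocyte integrins, went from 3.44, 3.50 and 2.59 CPM to 35.3, 26.5 and 27.3 CPM (3.22 ± 0.23), while CYT cells had 135 ± 43.0 CPM. The interaction was called for Cd40 (-3.90 ± 0.80; not without replicate 3 of IL-1βlow, -3.35, adjusted p = 0.0129) and Icam1 (-2.58 ± 0.35) and not for Madcam1 (-0.65 ± 0.28, adjusted p = 0.0863). With the replicate block 1 further member of the list, which falls outside the naming rule, was called lower.

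Of 18 tested complement, acute phase and iron genes 7 were higher and 0 lower. Lcn2, which binds bacterial siderophores, was at 0.205, 0.184 and 0.185 CPM without and 8.15, 11.6 and 13.3 CPM with CYT (5.79 ± 0.34, adjusted p = 2.18e-08), against 105 ± 21.9 CPM in CYT cells. C3, the central complement component, was at 11.4, 7.97 and 8.20 CPM after preconditioning alone and at 142, 135 and 189 CPM with CYT (4.07 ± 0.16, adjusted p = 3.11e-10). Untreated cells had 1 or 2 counts of C3 per library and CYT cells 341 ± 25.4 CPM, so the starting level differed between arms. Lbp, the lipopolysaccharide-binding protein, reached 1.82 ± 0.262 CPM from 0.0889 ± 0.105 (4.15 ± 0.58).

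Around nitric oxide, 2 of 14 tested genes were higher (14.3%, beside 2.92% of all genes), Nos2 and Ass1, and 0 lower. Ass1, which regenerates arginine for the synthase, was at 17.5, 13.1 and 15.1 CPM and rose to 70.4, 62.5 and 79.6 CPM (2.21 ± 0.13, adjusted p = 2.78e-08). In CYT cells it stood at 329 ± 19.9 CPM, and the interaction was -1.95 ± 0.19 (adjusted p = 5.8e-06). The interaction of Nos2 was -3.00 ± 2.59 and not called (adjusted p = 0.384), since it rests on 0 to 2 counts in each library without CYT. Odc1, the ornithine decarboxylase, was at 197 ± 9.19 and 278 ± 13.4 CPM and did not reach the fold threshold (0.50 ± 0.08). Among 23 antioxidant genes 2 were higher (8.70%, beside 2.92% of all genes) and 0 lower. Sod2, the mitochondrial superoxide dismutase and an NF-κB target, rose from 106, 100 and 101 CPM to 307, 313 and 386 CPM (1.71 ± 0.10, adjusted p = 2.22e-08). Mt1, a metallothionein, rose by 1.19 ± 0.15 to 30.7 ± 6.37 CPM, against 65.3 ± 8.66 CPM in CYT cells. Srxn1, which repairs peroxiredoxins, was at 91.5 ± 5.29 and 66.2 ± 5.98 CPM and not called (-0.47 ± 0.09).

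**Figure D4:**
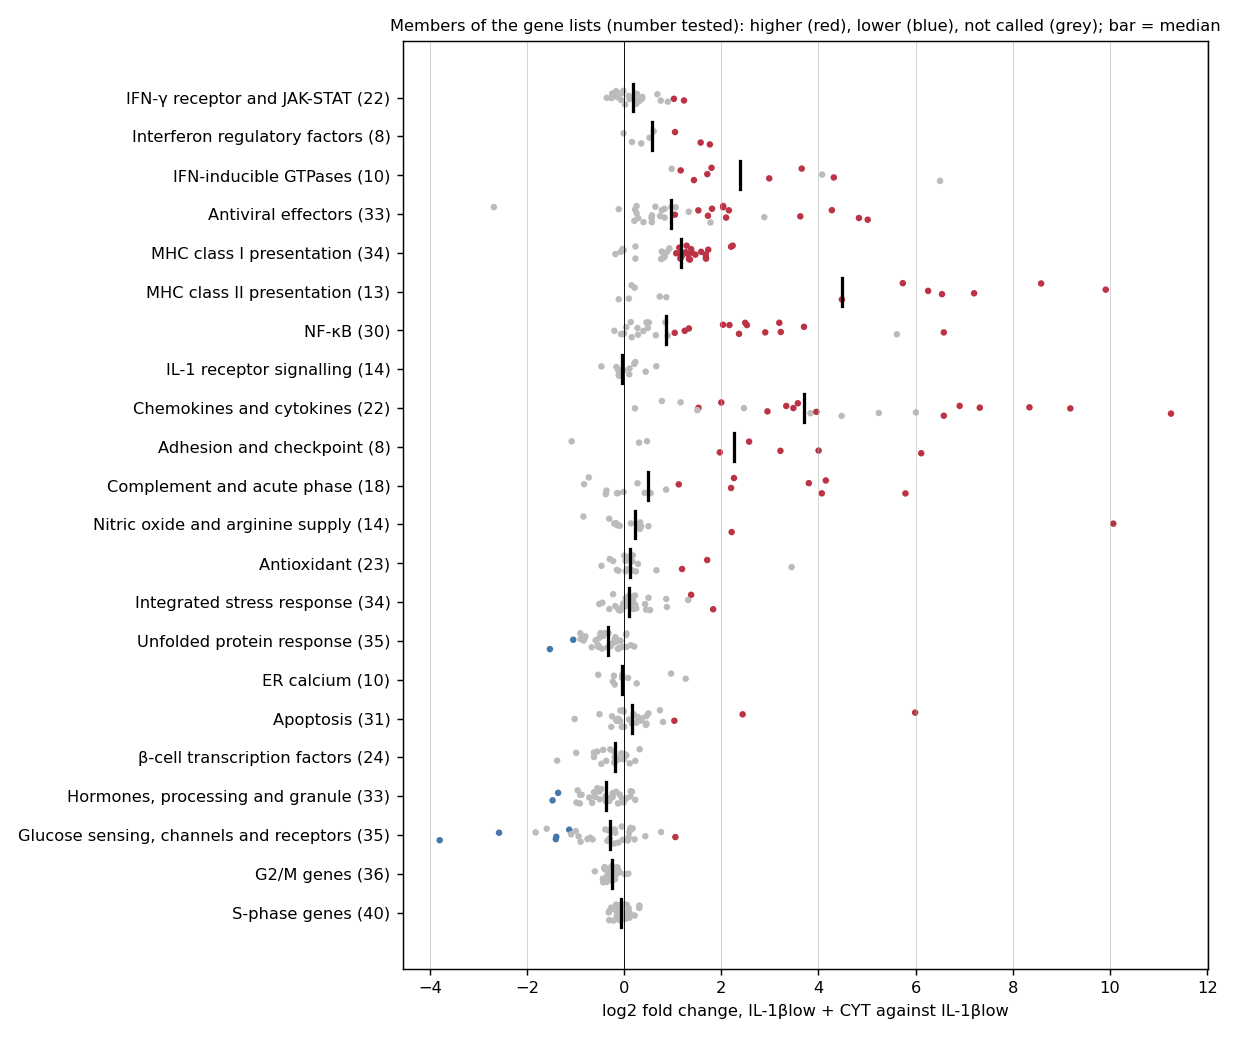
Log2 fold change of IL-1βlow + CYT against IL-1βlow cells (x axis) for the tested members of each of 22 gene lists (y axis, number tested in brackets). Each point is a gene, red where called higher, blue where called lower and grey where not called, and the black bar is the list's median. Among the listed genes, those called higher lie mostly in the interferon, MHC, NF-κB and chemokine lists, and the cell cycle and β-cell factor lists hold 0. Most of the 418 called higher genes are in none of the lists.

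Few genes of the integrated stress response passed the thresholds. This response slows translation through eIF2α and induces ATF4, which in turn drives amino acid synthesis genes and CHOP. Of 34 tested genes 2 (5.88%, beside 2.92% of all genes) were higher and 0 lower, with a median log2 fold change of 0.10. An unadjusted p under 0.05 was found for 16 of them (23.6% over all genes), and at an adjusted p under 0.05 with no fold minimum 7 were higher (7.96% over all genes). By contrast, 23 were higher in CYT cells with a median of 1.60. The interaction was called for 22 of the 34, all with a smaller response after preconditioning. Atf4 was at 159, 180 and 164 CPM in IL-1βlow cells and at 169, 204 and 199 CPM with CYT, with overlap (0.19 ± 0.09, adjusted p = 0.224). In CYT cells it averaged 699 ± 27.5 CPM against 169 ± 11.2 in untreated cells (interaction -1.87 ± 0.13, adjusted p = 5.19e-07). Ddit3, which encodes CHOP, was at 14.5, 14.7 and 17.0 CPM and at 19.0, 31.3 and 33.7 CPM with CYT, without overlap and short of the fold threshold (0.87 ± 0.17, adjusted p = 0.0029). Its call depended on 1 library, since it passed without replicate 1 of IL-1βlow + CYT (1.07, adjusted p = 4.25e-05). CYT cells had 299 ± 29.9 CPM of Ddit3 and the interaction was -3.66 ± 0.24 (adjusted p = 4.82e-07).

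Both called members were weak calls. Trib3, the pseudokinase induced by ATF4 and CHOP whose promoter is shown above, was at 3.08, 3.74 and 3.64 CPM and at 5.11, 16.7 and 15 CPM with CYT (1.83 ± 0.35, adjusted p = 0.00199). Replicate 1 of the challenged group was low beside the others. The call was lost without replicate 1 of IL-1βlow (1.73, adjusted p = 0.0168), without replicate 2 of IL-1βlow + CYT (1.54, adjusted p = 0.012) and without replicate 3 of both groups (1.72, adjusted p = 0.0133). CYT cells had 215 ± 36.8 CPM of Trib3 (interaction -4.25 ± 0.50). Gdf15, a stress-induced hormone, went from 0.871 ± 0.180 to 2.30 ± 0.257 CPM (1.38 ± 0.25, adjusted p = 0.00133) and to 14.4 ± 2.28 CPM in CYT cells, and lost its call without replicate 3 of both groups (1.22, adjusted p = 0.0205). Gars1, a glycyl-tRNA synthetase, was at 459 ± 9.28 and 322 ± 12.9 CPM and not called (-0.51 ± 0.07). The number of called members was 1 without replicate 1 of IL-1βlow or replicate 2 of IL-1βlow + CYT, 4 without replicate 1 of IL-1βlow + CYT, and 0 without replicate 3 of both groups. It was also 0 with the 6 libraries fitted alone, where Trib3 had an adjusted p of 0.0156 and Gdf15 of 0.013 by the quasi-likelihood test.

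**Figure D5:**
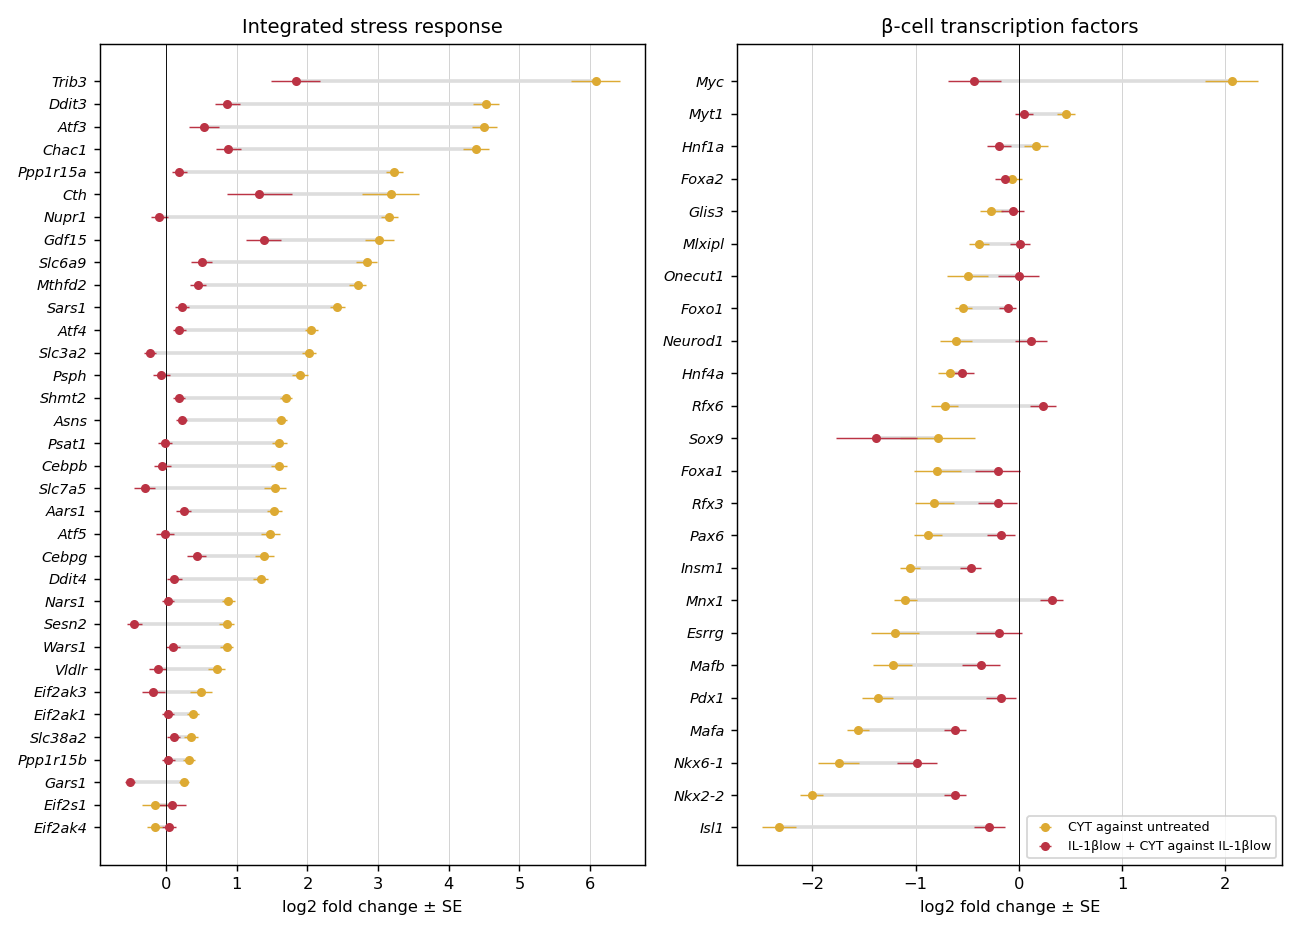
Log2 fold change with SE (x axis) for the 34 tested genes of the integrated stress response and the 24 tested β-cell transcription factors (y axis), ordered by the response without preconditioning. Yellow points give CYT against untreated cells and red points IL-1βlow + CYT against IL-1βlow cells. Trib3, Ddit3 and Atf4 lie at 6.08, 4.52 and 2.05 in yellow and at 1.83, 0.87 and 0.19 in red.

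Genes of the unfolded protein response were mostly lower, but few fell beyond the fold threshold. ER chaperones fold secreted cargo and their genes are driven by XBP1 and ATF6 in the unfolded protein response. Of 35 tested genes 0 were higher and 2 lower (5.71%, beside 0.963% of all genes). At an adjusted p under 0.05 with no fold minimum 19 were lower (715 of all 14324 genes). An unadjusted p under 0.05 was found for 20 (23.6% over all genes). A negative log2 fold change was found for 30 of 35 (51.3% over all tested genes), and the median was -0.34 (-0.53 in CYT cells). For the 11 chaperones among them the median was -0.80 in preconditioned cells and -0.71 in CYT cells. Derl3, part of ER-associated degradation, was at 20.4, 31.3 and 28.9 CPM and fell to 9.79, 9.10 and 9.03 CPM (-1.53 ± 0.16, adjusted p = 1.1e-05), close to 9.11 ± 0.528 CPM in CYT cells. Sdf2l1, a cofactor of the chaperone BiP, went from 63.6 ± 10.6 to 30.8 ± 1.55 CPM (-1.05 ± 0.14), and missed the fold threshold without replicate 3 of IL-1βlow (-0.95) or of both groups (-0.93). Hspa5, which encodes BiP, was at 1382, 1458 and 1804 CPM and at 899, 855 and 918 CPM with CYT, without overlap but under the fold threshold (-0.80 ± 0.11, adjusted p = 0.000115). Hsp90b1 (-0.83 ± 0.13), Hyou1 (-0.90 ± 0.12) and Creld2 (-0.90 ± 0.12), all chaperones or their cofactors, were likewise lower in each challenged library and not called. Hyou1 and Creld2 each passed without replicate 1 of IL-1βlow (both -1.03), where the list held 4 lower genes, and it held 1 without replicate 3 of IL-1βlow. P4hb, a disulfide isomerase (0.05 ± 0.11), and Xbp1 (-0.32 ± 0.09) were not called. None of these named genes had a called interaction, but other members of the list did. Of the 35 genes 4 had a called negative interaction, among them 2 of the 4 sensors, and 2 a positive one. Over all genes the shares were 5.20% and 5.48%.

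Of 10 ER calcium pumps and channels 0 were called by edgeR's quasi-likelihood test, 5 had an unadjusted p under 0.05 (23.6% over all genes), and 4 had no overlap between groups (27.1% over all genes). Atp2a3, an ER calcium pump, was at 205, 110 and 179 CPM and at 484, 272 and 433 CPM with CYT (1.27 ± 0.32, adjusted p = 0.0149). With the replicate block it was called (1.28, adjusted p = 2.46e-07), as it was by DESeq2 (1.27, adjusted p = 0.00967) and without replicate 2 of IL-1βlow + CYT (1.48, adjusted p = 0.00844). Replicate 2 was the lowest in both groups. The ryanodine receptor Ryr2 (0.97 ± 0.23, adjusted p = 0.0104) was called without replicate 2 of IL-1βlow + CYT (1.122, adjusted p = 0.00677), and its interaction was called with the replicate block (1.04, adjusted p = 0.000621, against 1.05, adjusted p = 0.0222 without the block). The IP3 receptor Itpr2 (-0.53 ± 0.12) was not called.

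Of 31 tested apoptosis genes 3 were higher (9.68%, beside 2.92% of all genes) and 0 lower. At an adjusted p under 0.05 with no fold minimum 9 were higher (7.96% over all genes). Casp4, the inflammatory caspase that senses lipopolysaccharide, had at most 1 count per IL-1βlow library and 1.16, 1.09 and 2.79 CPM with CYT, at least 9.64-fold higher. Fas, the death receptor, rose from 3.49, 3.37 and 3.70 CPM to 19.4, 20.7 and 17.2 CPM (2.44 ± 0.16, adjusted p = 8.12e-08), against 36.6 ± 7.57 CPM in CYT cells. Gsdmd, the pore-forming substrate of inflammatory caspases, rose by 1.03 ± 0.20, a call lost without replicate 3 of IL-1βlow (0.84, adjusted p = 0.0102), without replicate 2 of IL-1βlow + CYT (0.96, adjusted p = 0.0135) and without replicate 3 of both groups (0.90, adjusted p = 0.00827). With the 6 libraries fitted alone Gsdmd was not called either (1.04, adjusted p = 0.0181). The BCL2 family was not called. Hrk was at 4.30 ± 0.760 and 5.92 ± 1.19 CPM and Bbc3, which encodes PUMA, at 25.8 ± 1.69 and 35.5 ± 2.53 CPM (0.46 ± 0.20 and 0.46 ± 0.11). In CYT cells these BH3-only genes averaged 31.9 ± 2.50 and 109 ± 15 CPM, and the interaction was -2.23 ± 0.27 for Hrk and -1.82 ± 0.15 for Bbc3. Bax (0.35 ± 0.10) was not called. The survival gene Bcl2 was at 10.2, 11.0 and 11.0 CPM without and 9.73, 10.2 and 11.1 CPM with CYT, with overlap, whereas CYT cells had 4.37 ± 0.766 CPM (interaction 1.19 ± 0.21, adjusted p = 0.000614).

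None of the 24 tested β-cell transcription factors was called by edgeR's quasi-likelihood test or by DESeq2, while edgeR's exact test called 1 lower and 7 had an unadjusted p under 0.05, beside 23.6% of all genes. At an adjusted p under 0.05 with no fold minimum 6 were lower (715 of all 14324 genes). A negative log2 fold change was found for 19 of the 24 (51.3% over all genes). In CYT cells 9 were lower and 1 higher. The median log2 fold change was -0.19 in preconditioned cells and -0.79 without preconditioning. Pdx1, which activates the insulin genes, was at 310, 315 and 265 CPM in IL-1βlow cells and at 289, 277 and 224 CPM with CYT, with overlap (-0.17 ± 0.15, adjusted p = 0.566). CYT cells had 103 ± 27.4 CPM of Pdx1 against 266 ± 3.64 in untreated cells, and the interaction was 1.19 ± 0.21 (adjusted p = 0.000701). Mafa, the factor of mature β cells, was at 743, 854 and 855 CPM and at 602, 531 and 461 CPM (-0.62 ± 0.11, adjusted p = 0.000993), lower in each challenged library but under the fold threshold. Nkx2-2 was at 119 ± 8.49 and 77.1 ± 4.62 CPM (-0.62 ± 0.10), and its interaction of 1.39 ± 0.15 was called. Nkx6-1 was nearest to a call, with 23.5, 40.4 and 30.7 against 15.9, 17.5 and 14.2 CPM (-0.99 ± 0.19, adjusted p = 0.00236). It passed without replicate 1 (-1.18) or replicate 3 (-1.01) of IL-1βlow, without replicate 2 of IL-1βlow + CYT (-1.06) and among genes with at least 10 counts in every library (-1.01).

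Of 33 tested genes for hormones, their processing and the secretory granule 0 were higher and 2 lower (6.06%, beside 0.963% of all genes). The 2 were Ins2 and Npy, and 11 were lower in CYT cells. At an adjusted p under 0.05 with no fold minimum 16 were lower (715 of all 14324 genes). An unadjusted p under 0.05 was found for 23 (23.6% over all genes) and a negative log2 fold change for 28 (51.3% over all genes). Ins2 was at 4779, 4987 and 4926 CPM and fell to 2061, 1650 and 1582 CPM (-1.47 ± 0.11, adjusted p = 2.9e-07). It was at 8097 ± 870 CPM in untreated and 1295 ± 23.6 CPM in CYT cells, and the interaction was 1.17 ± 0.15 (adjusted p = 7.38e-05). Ins1 was at 20173, 25344 and 21155 CPM and at 13277, 12070 and 10118 CPM with CYT (-0.91 ± 0.14, adjusted p = 0.000299), without overlap and under the fold threshold, which it passed without replicate 1 of IL-1βlow + CYT (-1.01). Ins1 and Ins2 are alike in sequence, so reads may be split between them. Npy, a peptide stored with insulin in the granule, fell by 1.36 ± 0.12, and in CYT cells by 1.35 ± 0.12. Chga, a granule protein, was at 9856 ± 999 and 5080 ± 571 CPM (-0.96 ± 0.12). It was called without replicate 1 or 3 of IL-1βlow or replicate 1 or 2 of IL-1βlow + CYT (-1.002 to -1.016), and the list then held 2 to 5 lower genes over the libraries left out. Ucn3 was below the filter, with 12 to 15 counts in IL-1βlow libraries and 1 to 12 counts with CYT.

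Among 35 genes of glucose sensing, channels and receptors 1 was higher (2.86%, beside 2.92% of all genes) and 5 lower (14.3%, beside 0.963%). The lower ones were 4 receptors and signalling partners and 1 channel. With the 6 libraries fitted alone 3 were lower. At an adjusted p under 0.05 with no fold minimum 2 were higher (7.96% over all genes) and 15 lower (715 of all 14324 genes). Oxtr is given above. Casr, the calcium-sensing receptor, was at 1.33, 1.35 and 0.679 CPM and at most 3 counts per library with CYT, at least 6.59-fold lower (adjusted p = 0.000333). Irs2, the substrate that carries insulin and IGF1 signals, fell from 438, 535 and 526 CPM to 189, 190 and 187 CPM (-1.41 ± 0.08, adjusted p = 2.45e-08), near its 169 ± 7.34 CPM in CYT cells. The remaining calls were Prlr (-1.13), Trpm5 (-1.40) and the higher Gcgr (1.06), all outside the naming rule and named after their values were seen. The call of Gcgr was lost without replicate 1 or 3 of IL-1βlow or replicate 2 of IL-1βlow + CYT, which left 0 higher genes. Slc2a2, the glucose transporter GLUT2, was at 397, 307 and 350 CPM and at 715, 536 and 536 CPM with CYT, higher in each challenged library and under the fold threshold (0.76 ± 0.14, adjusted p = 0.00189). CYT cells had 397 ± 64.1 CPM of Slc2a2 against 434 ± 51.3 in untreated cells (interaction 0.89 ± 0.20, not called).

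None of the 36 G2/M genes and none of the 40 S-phase genes was called by edgeR's quasi-likelihood test, its exact test or DESeq2. An unadjusted p under 0.05 was found for 21 and 4 of them, beside 23.6% of all genes. At an adjusted p under 0.05 with no fold minimum 9 G2/M genes and 1 S-phase gene were lower (715 of all 14324 genes). Over all genes 51.3% had a negative log2 fold change, and 34 of the 36 G2/M genes had a negative log2 fold change, with a median of -0.26. In CYT cells 26 of the 36 were lower, with a median of -1.24, and the interaction was called for 18, all with a smaller fall after preconditioning. Mki67, the proliferation marker, was at 297, 291 and 288 CPM in IL-1βlow cells and at 210, 217 and 262 CPM with CYT (-0.34 ± 0.09, adjusted p = 0.0153), and at 114 ± 5.89 CPM in CYT cells (interaction 1.13 ± 0.12, adjusted p = 1.6e-05). The kinetochore gene Cenpf (-0.60 ± 0.15, interaction 1.24 ± 0.22) and the spindle gene Prc1 (-0.44 ± 0.09) were also lower in each challenged library and not called. The S-phase genes had a median of -0.06, and the checkpoint adaptor Clspn (-0.30 ± 0.08) and the histone chaperone subunit Chaf1b (0.31 ± 0.10) were not called.

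The largest called interactions among genes with a mean log2 CPM above 2 were of different kinds. On the negative side stood C3, Cd74, RT1-Ba, LOC120096227, Trib3 and Akna. The fitted sizes for C3 and RT1-Ba, as for Cd40 and Lcn2 above, rest on at most 3 counts in each untreated library and depend on the fit. For C3, Cd74, RT1-Ba and LOC120096227 the level without CYT was higher after preconditioning, at 9.19 ± 1.90, 11.1 ± 1.07, 0.615 ± 0.536 and 1.51 ± 0.192 CPM beside 0.0788 ± 0.0343, 0.332 ± 0.229, 0.0996 ± 0.0717 and 0.115 ± 0.151 CPM in untreated cells. Akna, an AT-hook protein, instead differed in its end level: it was at 4.20, 9.80 and 9.15 CPM with CYT after preconditioning and at 101 ± 12.2 CPM in CYT cells, from 1.95 ± 0.198 and 1.5 ± 0.157 CPM (interaction -4.09 ± 0.40, adjusted p = 6.98e-06). On the positive side stood ND4L, Oxtr, Klf2, LOC120097471, Cyp4a8 and Kcnk16, of which only Oxtr was called in preconditioned cells. Klf2, a transcription factor of the Krüppel-like family, was at 38.3, 48.9 and 40.0 CPM without and 41.5, 35.2 and 26.0 CPM with CYT, while it was at 48.3 ± 6.75 CPM in untreated and 3.50 ± 0.504 CPM in CYT cells (interaction 3.48 ± 0.25, adjusted p = 7.3e-07). Cyp4a8, a fatty acid hydroxylase, was at 157 ± 23.3 and 82.6 ± 19.4 CPM (-0.93 ± 0.22) and at 7.23 ± 3.15 CPM in CYT cells. ND4L, a mitochondrially encoded subunit of complex I, was uneven within IL-1βlow cells, at 39.7, 33.9 and 203 CPM, and its log2 fold change of 0.87 became 2.19 (adjusted p = 0.0036) without replicate 3 of that group.

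Some of these values could include reads of another gene. By RefSeq's gene spans on GRCr8, Cdh23, Iqgap2, Fgl2, Irak4, Gdf15, Derl3, Creld2, Clspn, Klf2, Kcnk16 and Ddit3 overlap another named gene, and the strand setting of the counting is not given in the sources used here.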

How the data were processed

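RNA from INS-1E cells was sequenced after poly(A) selection (TruSeq), 3 numbered biological replicates in each of 4 groups. The authors deposited 1 table of raw counts per gene made with featureCounts on mRatBN7.2. The strand setting is not given in the sources used here. All 12 count columns were matched to samples by name. The filter kept genes whose CPM exceeded 1 in 2 or more libraries. They were fitted over all 12 libraries, 1 coefficient per group, with TMM factors and edgeR 4.0.16's quasi-likelihood test (R 4.3.3, limma 3.58.1; DESeq2 1.42.0 as an alternative). Calls needed a Benjamini-Hochberg adjusted p under 0.01 and a log2 fold change beyond 1. SE is the fold change over the square root of F. A gene with at most 3 counts in every library of the lower group has a bound from 3 counts per library. Floors cover counting error only.

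Same-numbered libraries of the 2 groups, numbered in the titles, deviated together (correlations 0.147, 0.423 and 0.475). Differently numbered ones ranged from -0.430 to 0.154, so the pair numbered 1 was not set apart. As each same-numbered correlation was over 0.1, the numbers were taken to pair the samples. A fit with the number as a block was an alternative, and adjusted p values are from the fit without it unless marked. Other alternatives were DESeq2, the exact test, other scaling, filters and thresholds, the 6 libraries alone and each library left out. Genes named were the 6 largest called rises and falls and the 6 largest called interactions of each sign (mean log2 CPM above 2; rises and falls the same way in all 3 pairs), up to 3 per list, and genes the study also measured otherwise; exceptions are marked. Members and lists were chosen with earlier results of these data known. The model scripts were tested on simulated data. A few genes that the rule named are not reported here.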

Additional observations from a re-analysis of the deposited data

Results flagged for a closer look

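The response to CYT differed between preconditioned and other cells, by the interaction test over all genes, for 785 genes in the positive and 745 in the negative direction, and among the named genes for 45 of 98. A negative value means a lower log2 response to CYT after preconditioning. Among interferon factors and effectors the log2 interaction was negative for Usp18 -1.95, Irf5 -1.30, Irf1 -1.38, Irf7 -2.57, Gbp6 -3.59, Gbp2 -2.68 and Mx2 -4.06. Among antigen presentation genes the log2 interaction was negative for Psmb8 -1.35, Psmb9 -1.10, B2m -1.08, RT1-Ba -4.38 and Cd74 -5.69. Among NF-κB and inflammatory genes the log2 interaction was negative for Ltb -2.12, Irak2 -1.57, Cd40 -3.90, Icam1 -2.58, Lcn2 -6.15, C3 -7.89, Ass1 -1.95 and Mt1 -2.01. Among stress and death genes the log2 interaction was negative for Trib3 -4.25, Ddit3 -3.66, Atf4 -1.87, Gdf15 -1.64, Hrk -2.23, Bbc3 -1.82 and Fas -1.04. It was also negative for Lrp4 -2.65, LOC120096227 -4.26 and Akna -4.09. It was positive for the β-cell, cell cycle and survival genes Nkx2-2 1.39, Pdx1 1.19, Ins2 1.17, Mki67 1.13, Cenpf 1.24 and Bcl2 1.19, of which only Ins2 was called in preconditioned cells. It was positive as well for Oxtr 3.56, Iqgap2 1.39, Fgl2 1.73, Il1r1 1.03, ND4L 3.6, Klf2 3.48, LOC120097471 3.02, Cyp4a8 2.99 and Kcnk16 2.84. Leaving out 1 library ended the call of Ltb (-1.86 to -2.01, adjusted p 0.0165 to 0.0304, without replicate 1 of IL-1βlow or replicate 1 or 3 of untreated), Iqgap2 (1.19 to 1.29, without replicate 1 of CYT or 2 of untreated), Fas (-0.92 to -0.98, without replicate 3 of CYT or of IL-1βlow + CYT) and ND4L (3.06 to 3.58, without replicate 1 of untreated, IL-1βlow or CYT or replicate 2 of CYT). It also ended those of Gbp2, Gbp6, Mx2, Psmb9, Cd40 and Il1r1, with the values given beside each of them above.

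Of the 556 genes called in preconditioned cells, 60 were not called the same way without preconditioning, and 17 of these had a called interaction. The 3 lower ones were Fosl2 -1.77, Adora2b -1.93 and Sik1 -1.16, all values being log2 interactions. The 14 higher ones were LOC120095206 1.33, LOC120102307 1.42, Nr2f2 1.41, Paqr8 1.39, Man1a2 1.04, Adgrg4 2.79, Bcl3 1.5, Kcnj2 1.15, Eeig2 1.38, Calb1 1.48, Apcdd1 1.17, Klhl14 1.09, Csf1r 4.10 and Cav1 3.10. These 17 were named after their values were seen.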

How the results depend on the processing

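The counts of 418 higher and 138 lower genes and of 1530 interactions moved by over 1.5 times under 3 settings, by their construction. With at least 10 counts required in every library 277 genes were higher. Higher genes in the lists then fell to 7 chemokines and cytokines, 4 interferon-inducible GTPases, 3 adhesion and checkpoint genes and 3 complement and acute phase genes. JAK-STAT and nitric oxide genes fell to 1 each and class II genes to 0. With an adjusted p under 0.05 and no fold minimum 1140 were higher and 715 lower and 5337 interactions were called. With a test against a log2 fold change of 1 (glmTreat) 213 were higher and 16 lower. Fitted alone, the 6 libraries compared gave 382 higher and 99 lower. Leaving out 1 library gave 380 to 407 higher, 100 to 143 lower and 1276 to 1707 interactions. Without replicate 3 of both groups, chosen after seeing the data, there were 372, 102 and 1571. The replicate block gave 441, 170 and 1767 and kept 553 of the 556 genes. For named genes it changed the fold-change calls of Usp18 and Atp2a3 and the interaction calls of Mx1 and Ryr2 and no other. Of 1640 alternative fold changes of named genes 39 lost and 48 gained a call and 0 reversed, and of 1934 interactions 36 lost and 48 gained one and 0 reversed, and the cause was not tested. Counts of 0 to 3 per library limit Nos2, Tnf and the class II genes.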
